A study of Mus musculus with 2 samples.

Results

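The ephrins, the Eph receptors, the semaphorins, the plexins and the neuropilins are families of guidance cues and their receptors, and 44 of their genes were examined among the 21851 protein-coding genes of the GENCODE M21 annotation. The genes were chosen from a list of names: 5 ephrin-A and 3 ephrin-B ligands, 9 EphA and 5 EphB receptors, 5 secreted and 7 membrane semaphorins, 8 plexins and 2 neuropilins. The list gives the genes by name and sets no threshold on a measured value. The data are DNase-seq, which maps stretches of chromatin that the enzyme DNase I can cut, together with the footprints inside them where a bound protein shields the DNA. The tissue was the layer of hippocampus of male B6CASTF1/J mice, an F1 hybrid of C57BL/6J and CAST/EiJ, aged 8 to 10 months, with no treatment given in the labels. There was 1 group of 2 replicates, each a pool of 2 biosamples and both with the same donor label. The labels do not say if any mouse contributed to both. There is no contrast between conditions, and every SD is the spread between these 2 pools.

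Ephrins are tethered to the membrane, by a lipid anchor in the A class and a membrane-spanning segment in the B class, and bind Eph receptor tyrosine kinases on the neighbouring cell, so that both cells can receive a signal. Semaphorins bind plexins, whose intracellular part acts on small GTPases of the R-Ras and Rap families, and most secreted semaphorins need a neuropilin as co-receptor. In the hippocampus these families are known for guiding axons during development and, in the adult, for roles at dendritic spines and synapses.

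A gene is called open here when a peak of the longer deposited list touched a window of 1000 bp to either side of one of its coding start sites, and its promoter height is the signal of the strongest such peak, a value of the authors whose scale is not stated. The lists held 144270 peaks in replicate 1 and 124426 in replicate 2. Heights came in whole steps of 0.00656 in replicate 1 and 0.00646 in replicate 2, so the lowest member promoters in each stood at 58 and 84 steps and the highest at 1351 and 1198. Of all coding genes, 62.6% were open in both replicates. Among cell type markers it was 8 of 8 for hippocampal excitatory neurons, 6 of 6 for astrocytes and 5 of 6 for oligodendrocytes. Inhibitory neuron markers reached 3 of 6, microglial and endothelial markers 1 of 6 each, choroid plexus markers 1 of 4 and cerebellar markers 1 of 3. In such bulk tissue, fewer cells with an open site and less cutting per cell cannot be told apart.

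The sequences below are the stretches the promoter results turn on: one of the higher promoters of 6 classes, and the 1 promoter with no peak in either replicate. They are RefSeq promoters on GRCm38.p6, 5′ to 3′ on the gene's strand and ending just before an annotated coding start. Bases that were footprinted in both replicates are in capitals. Ephb3 is chr16:21204545-21204754 on the plus strand, Epha7 is chr4:28812881-28813130 on the plus strand and Efnb2 is chr8:8661243-8661492 on the minus strand. Efna3 is chr3:89322966-89323189 on the minus strand and Plxna2 is chr1:194619579-194619824 on the plus strand. Sema7a is chr9:57939862-57940111 and Efna2 is chr10:80179232-80179481, both on the plus strand.
Ephb3: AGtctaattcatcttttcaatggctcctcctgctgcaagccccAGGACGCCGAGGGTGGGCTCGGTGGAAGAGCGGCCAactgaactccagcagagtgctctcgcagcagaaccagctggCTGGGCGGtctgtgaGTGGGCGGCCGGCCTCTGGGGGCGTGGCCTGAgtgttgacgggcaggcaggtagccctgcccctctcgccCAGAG
Epha7: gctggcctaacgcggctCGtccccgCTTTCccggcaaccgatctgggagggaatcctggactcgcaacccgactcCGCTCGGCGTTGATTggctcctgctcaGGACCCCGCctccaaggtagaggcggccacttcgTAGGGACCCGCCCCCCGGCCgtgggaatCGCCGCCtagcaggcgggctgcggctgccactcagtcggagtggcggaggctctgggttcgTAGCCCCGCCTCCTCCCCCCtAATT
Efnb2: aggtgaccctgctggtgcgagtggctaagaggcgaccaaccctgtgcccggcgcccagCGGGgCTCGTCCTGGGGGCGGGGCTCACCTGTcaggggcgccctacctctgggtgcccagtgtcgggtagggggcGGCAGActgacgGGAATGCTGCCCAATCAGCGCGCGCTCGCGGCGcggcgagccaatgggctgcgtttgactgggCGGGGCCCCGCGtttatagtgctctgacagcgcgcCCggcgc
Efna3: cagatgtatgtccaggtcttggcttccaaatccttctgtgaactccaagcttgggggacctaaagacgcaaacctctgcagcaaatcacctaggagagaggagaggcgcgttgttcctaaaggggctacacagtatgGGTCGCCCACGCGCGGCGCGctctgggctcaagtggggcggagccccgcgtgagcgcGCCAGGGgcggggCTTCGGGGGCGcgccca
Plxna2: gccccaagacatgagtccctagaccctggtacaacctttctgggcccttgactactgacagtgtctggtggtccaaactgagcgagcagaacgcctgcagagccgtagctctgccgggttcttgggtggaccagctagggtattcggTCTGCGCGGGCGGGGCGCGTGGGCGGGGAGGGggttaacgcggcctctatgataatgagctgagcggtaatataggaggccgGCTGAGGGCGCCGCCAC
Sema7a: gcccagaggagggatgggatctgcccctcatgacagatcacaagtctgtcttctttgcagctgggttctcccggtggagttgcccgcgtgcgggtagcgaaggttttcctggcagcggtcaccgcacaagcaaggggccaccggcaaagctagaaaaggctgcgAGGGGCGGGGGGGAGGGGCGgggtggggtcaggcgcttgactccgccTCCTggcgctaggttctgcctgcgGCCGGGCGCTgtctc
Efna2: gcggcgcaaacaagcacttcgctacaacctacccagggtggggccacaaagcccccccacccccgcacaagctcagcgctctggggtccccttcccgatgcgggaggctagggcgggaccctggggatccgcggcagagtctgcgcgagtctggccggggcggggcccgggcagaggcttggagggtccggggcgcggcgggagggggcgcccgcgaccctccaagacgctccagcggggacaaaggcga
In the Ephb3 stretch 83 of 210 bases lay in footprints shared by the replicates, in Epha7 82 of 250 and in Efnb2 84 of 250. In Efna3 it was 38 of 224 bases, in Plxna2 49 of 246, in Sema7a 34 of 250 and in Efna2 0 of 250. The unopened Efna2 stretch holds 25 CpG, while the other 6 hold from 11 in Ephb3 to 27 in Efnb2.

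Nearly all of these genes had an open promoter, but most of the promoters were low and wide. In both replicates 41 of 44 members (93.2%) were open, against 62.6% of all coding genes. Most members have CpG-rich promoters, a kind that is usually open whatever the tissue, and read against that kind the share was not high. Of the 37 members with a CpG observed/expected ratio of 0.6 or more, 34 were open in both, or 91.9%, against 93.8% of all such coding genes. The 7 members under that ratio (Epha1, Epha6, Epha10, Efnb3, Sema3f, Sema4a and Plxna3) were all open in both, against 3301 of 10788 coding genes under it.

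The median promoter height of the 41 open members was 1.94 in replicate 1 and 1.67 in replicate 2, a mean of 1.80 ± 0.186 (SD, n = 2), against 3.24 ± 0.498 over the 13679 coding genes open in both. The coding genes had medians of 3.59 and 2.89, above those of the members in each replicate. These SDs cover the 2 pools and not the spread among genes. Only 6 of the 41 lay above the median of those coding genes, namely Ephb3, Epha7, Efnb2, Ephb1, Epha4 and Plxna2. Among CpG-rich promoters the medians were 2.06 ± 0.224 for members and 3.87 ± 0.611 for coding genes. Among genes longer than 100 kb, which 22 of the 44 members are, they stood at 1.90 ± 0.312 for members and 2.11 ± 0.289 for coding genes. Both sets were lower in replicate 2, and within each replicate the members were lower, with 2.12 against 2.31 in replicate 1 and 1.68 against 1.90 in replicate 2. Among genes up to 100 kb the gap was wider, with 1.47 ± 0.339 for members and 3.49 ± 0.528 for coding genes.

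**Figure D1:**
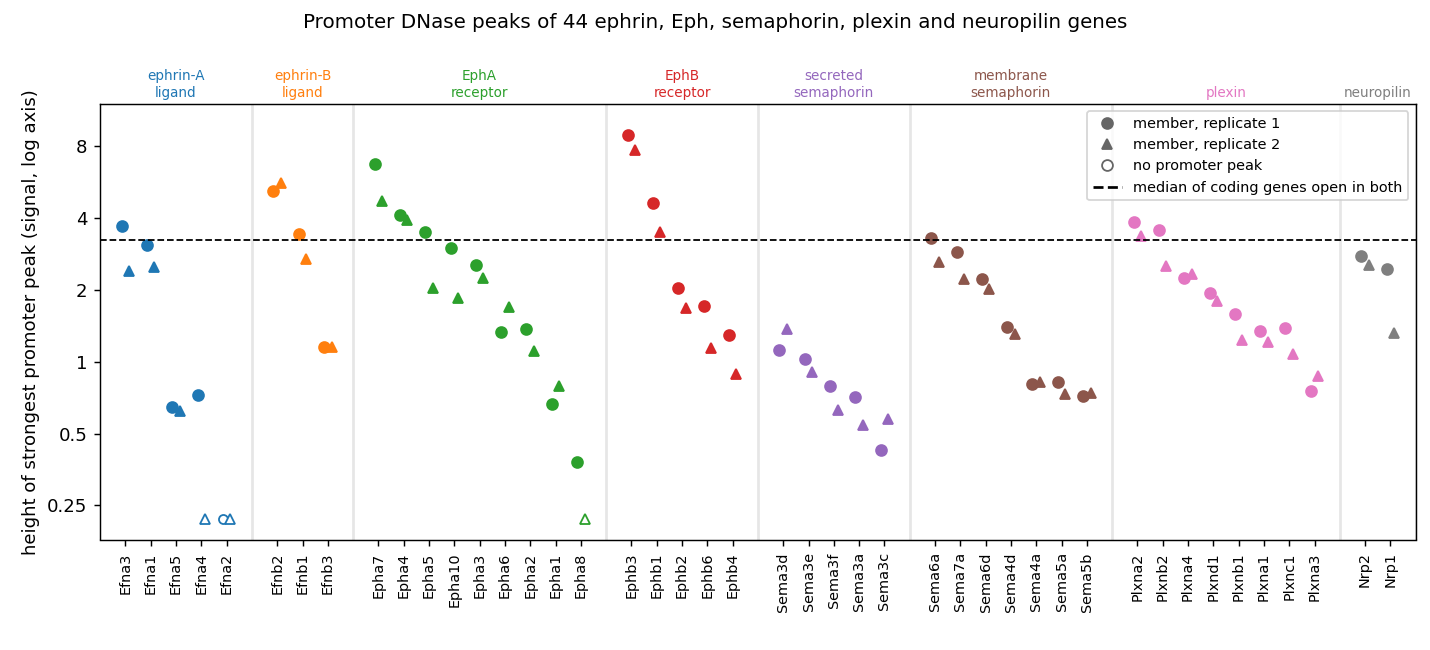
Height of the strongest promoter peak (signal, log axis) of each of the 44 genes in replicate 1 (circles) and replicate 2 (triangles), by class, with open symbols at the bottom for no promoter peak. The dashed line is the median of coding genes open in both replicates, 3.24, which the means of 6 members exceed.

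The promoters of the ephrin genes differed widely in height. Efnb2, the ephrin-B that binds EphB4 in vessels and several EphB receptors in brain, had 5.17 in replicate 1 and 5.59 in replicate 2, and was the only ligand above the coding median. Efnb1, the X-linked ephrin-B with 1 copy in these males, had 3.41 and 2.68, and Efnb3, the ephrin-B of the midline that blocks corticospinal axons, had 1.15 and 1.16. Among the lipid-anchored ephrins, Efna3, an astrocyte ligand of EphA4 at hippocampal synapses, had 3.70 and 2.40 and Efna1 had 3.07 and 2.49. Efna5, which sorts retinal axons in the tectum, had a promoter height of 0.643 and 0.620. Efna3 and Efna1 stood several times above Efna5 in each replicate.

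Efna2 was the 1 member with no promoter peak in either replicate. The authors' deposited false discovery rate of local cutting reached 0.0396 at its lowest in the Efna2 window in replicate 1, over 25 listed bp, and no interval was listed there in replicate 2. Efna4 had promoter peaks in replicate 1 alone, 2 that covered 115 bp. The taller, of height 0.728 and 50 bp wide, was centred 934 bp inside the gene, and the other, of 0.578, touched its RefSeq promoter. The lowest rates at Efna4 were 0.00549 and 0.0468 in the 2 replicates. Epha8, an EphA receptor of the developing midbrain, likewise had a promoter peak in replicate 1 alone, of height 0.381. Its lowest rate was 0.0169 there, with none listed in replicate 2. All 3 windows thus had intervals under the listing limit of 0.05 in replicate 1, and only that of Efna4 had one in replicate 2.

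By the mean of the replicates the 2 tallest promoters of all 44 genes belonged to Eph receptors, although Efnb2 stood second in replicate 2. Ephb3, which acts with Ephb2 in commissural axons, had 8.87 in replicate 1 and 7.74 in replicate 2, higher than 90.9% of open coding promoters, and a separate peak at its second annotated start with 4.55 and 2.69. Epha7, which has a known part in cortical map formation and dendrite shape, had 6.75 and 4.69. Ephb1, known for steering uncrossed retinal axons, had 4.64 and 3.49 and Epha4, the receptor that binds ephrins of both classes, had 4.10 and 3.92. Ephb2, which acts with NMDA receptors at excitatory synapses, had 2.03 and 1.67, below the coding median. The third EphA by height was Epha5, with 3.48 and 2.04, and the kinase-inactive EphA receptor gene Epha10 had 2.99 and 1.85. Of the rest, Epha3 had 2.54 and 2.23, Ephb6, whose kinase is also inactive, 1.71 and 1.14, and Epha6 1.33 and 1.69. Epha2, mostly an epithelial receptor, had 1.37 and 1.11, Ephb4, the venous partner of Efnb2, 1.29 and 0.885 and Epha1 0.663 and 0.794. The class medians were 2.35 ± 0.579 for EphA over 8 open genes and 1.85 ± 0.256 for EphB over 5.

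The secreted semaphorins had the lowest promoters of the 8 classes, with a class median of 0.710 ± 0.119 over 5 genes. Sema3d had 1.12 in replicate 1 and 1.38 in replicate 2, Sema3e, the ligand of plexin-D1, had 1.02 and 0.904, and Sema3f, the neuropilin-2 ligand that prunes hippocampal mossy fibre collaterals, had 0.794 and 0.626. Sema3a, the prototype axon repellent that acts through neuropilin-1, had 0.709 and 0.542, and Sema3c had 0.427 and 0.575. All 5 lay below the median of their open coding background in both replicates. The membrane semaphorins ran higher, with a median of 1.35 ± 0.057 over 7 genes and Sema6a, a ligand of plexins A2 and A4, at the top with 3.30 and 2.62. Sema7a, the lipid-anchored semaphorin, had 2.87 and 2.22 and Sema6d had 2.21 and 2.01. Sema4d, a plexin-B1 ligand, had 1.39 and 1.31, and Sema4a, Sema5a and Sema5b lay between 0.715 and 0.820 in both replicates.

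The receptors of the semaphorins were intermediate. Plxna2, a receptor for class 6 semaphorins in the mossy fibre path, had 3.86 in replicate 1 and 3.34 in replicate 2. Plxnb2 had 3.55 and 2.52, from a peak centred 1037 bp past the nearest start, at the edge of the window, and Plxna4, which pairs with neuropilin-1 for Sema3a, had 2.23 and 2.34. The other 5 plexins ran from 1.94 and 1.80 in Plxnd1, the Sema3e receptor, to 0.755 and 0.872 in the X-linked Plxna3. Nrp2 had 2.78 and 2.54 and Nrp1 had 2.45 and 1.32. Taken as roles, receptors had a median height of 2.02 ± 0.304 in 23 open genes and ligands 1.18 ± 0.0692 in 18. That order came from the semaphorin system, with 1.82 ± 0.371 for plexins and neuropilins and 0.892 ± 0.0425 for semaphorins. Among open genes of the Eph system it was the opposite, with 2.19 ± 0.490 for Eph receptors and 2.84 ± 0.564 for ephrins. These medians cover 13 of 14 Eph receptors and 6 of 8 ephrins. They leave out Epha8, Efna2 and Efna4, and the order was not computed with those low or closed promoters counted.

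The accessible stretch at these promoters was wider than usual. Promoter peaks covered a median of 720 ± 57.3 bp per open member, counting overlapping peaks once, against 420 bp per open coding gene in each replicate. By the mean of the replicates for each gene, 30 of 41 members lay above the coding median of that mean, 430 bp. Several start sites widen the window, but the 21 members with a single window of 2001 bp had 850 and 679 bp in the 2 replicates, against 372 and 365 bp over 5965 such coding genes. Width also goes with gene length: over 100 kb the medians were 855 ± 14.5 bp for members and 666 ± 20.5 bp for coding genes. CpG-rich members had 828 ± 24.7 bp and CpG-rich coding genes 460 bp.

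**Figure D2:**
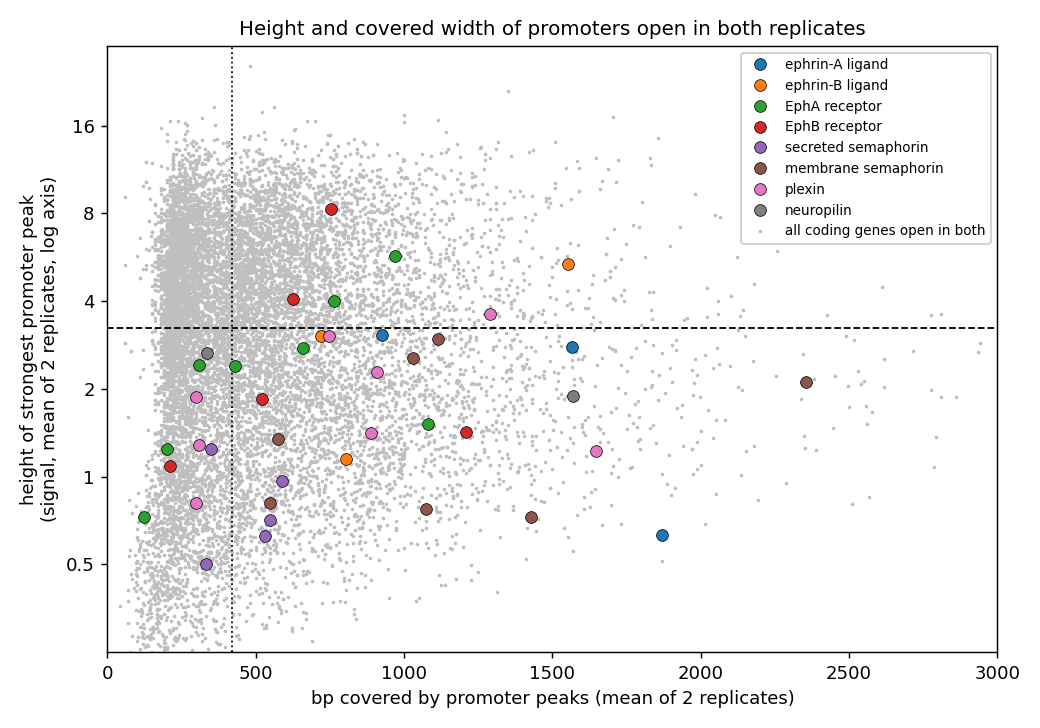
Bases covered by promoter peaks against height of the strongest promoter peak (log axis), means of 2 replicates, for the 41 members open in both (coloured by class) and all coding genes open in both (grey). Dotted and dashed lines mark the coding medians of 420 bp and 3.24, and most members sit to the right of the first and below the second.

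Wide promoters came in different shapes. At Efnb2 a 240 bp peak at the start with 5.17 and an upstream one with 3.45 in replicate 1 stood beside a stretch inside the gene of 880 bp with a height of 0.991. In replicate 2 the upstream peak had 4.22 and the inner stretch was 1240 bp wide with 0.839. Plxna2 had the same layout, with a peak of 2.28 and 2.42 upstream of the start, the tall one at the start, and low peaks of at most 1.03 to beyond 1000 bp inside. At Efna5 no tall peak was present. Its 6 peaks in replicate 1 covered 2180 bp and its 4 in replicate 2 covered 1557 bp, none higher than 0.643. Plxnc1, the plexin that binds Sema7a, covered 1680 and 1617 bp at heights of up to 1.38 and 1.07, and Sema6d, with 5 start sites, covered 2415 and 2296 bp.

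**Figure D3:**
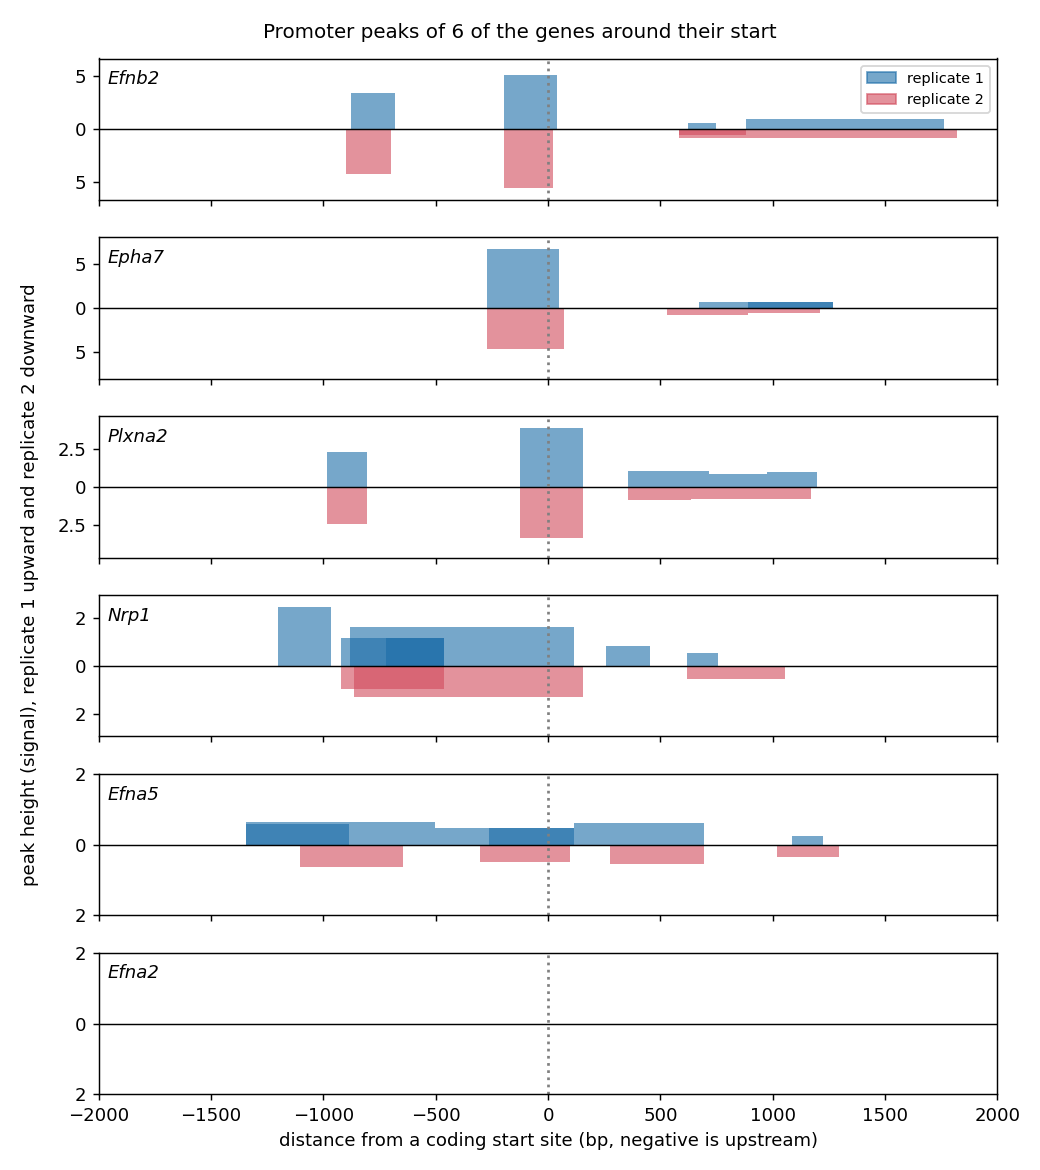
Promoter peaks of Efnb2, Epha7, Plxna2, Nrp1, Efna5 and Efna2 by distance from a coding start site (bp), with replicate 1 heights drawn upward and replicate 2 heights downward and darker areas where listed peaks overlap (peaks outside the promoter window are not drawn). Efnb2, Epha7 and Plxna2 combine a tall peak at the start with low peaks downstream, Efna5 has low peaks alone with a top of 0.643, and Efna2 has none.

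Member promoters held a median of 6 footprints in replicate 1 and 8 in replicate 2, against 5 and 6 per open coding gene. Per kb of promoter peak the direction was the opposite, with 9.32 and 11.2 footprints in member promoter peaks against 11.6 and 12.3 in all coding promoter peaks. A share of 52.1% of the 334 footprints in member promoter peaks of replicate 1 and 182 of 364 in those of replicate 2 overlapped a footprint of the other replicate, against 62.5% and 62.1% over all coding promoter peaks. Counts for single genes moved widely, as in Sema5a with 0 footprints in replicate 1 and 11 in replicate 2 at heights of 0.820 and 0.730, and in Efnb2 with 20 and 9. Ephb3 held 12 in each. The low peaks of Epha7 inside the gene held 0 in both replicates.

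Motif matches were searched on both strands of the 49 RefSeq promoters that 39 of the 44 members have, each reaching from 250 bp before to 50 bp after the start. Efnb3, Sema3f, Sema6a, Plxna1 and Plxna4 had no match by name. The SP/KLF box GGGCGG stood in 37 of 49 (75.5%), against 47.7% of all 20143 coding promoters. Of the RefSeq promoters whose own sequence has a CpG ratio of 0.6 or more, 24 of 28 from members held it, or 85.7%, against 74.5% of all such promoters. The ETS motif CCGGAAG, common at promoters of housekeeping genes, stood in 2 of 49 (Ephb6 and Plxnb1, 4.08%), against 11.9% of all. Among those CpG-rich RefSeq promoters it was 2 of 28 from members, or 7.14%, against 19.9%. Matches to NRF1 (GCGCATGCG), AP-1 (TGAGTCA), REST (TTCAGCACC), CTCF and MEF2 numbered 0 of 49, which allows a share of up to 6.12%, and at most 4.65% of all promoters hold any one of these, so the list is too short to show a difference.

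Some of these matches lay in footprints, and a match was also counted where part of its letters fell outside the footprint. GGGCGG matched in 36 of 334 promoter footprints in replicate 1 and 27 of 364 in replicate 2, with 5 and 4 at Ephb3 alone. The EGR motif GCGTGGGCG, of the family that includes the activity-induced factor Egr1, matched in 4 of 334 and 5 of 364. Shares over all promoter footprints were not counted for either motif. EGR matches lay in footprints found in both replicates at Efna3, Plxna2, Plxnb2 and Sema6d. Those of Plxna2 and Plxnb2 also held GGGCGG, so the 2 motifs cannot be told apart there. At Efna3 that footprint was chr3:89323033-89323055 in replicate 1, seen as the first capital run of the Efna3 sequence above, and at Plxna2 it was chr1:194619726-194619757 in both replicates. In RefSeq promoters it stood in 2 of 49 for members, Efna3 and Plxna2, against 0.879% of all promoters and 1.62% of CpG-rich ones. The CRE TGACGTCA stood once, at Epha2, inside a footprint of both replicates. A match says only that the letters are present.

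Beyond the promoters, member genes held many distal peaks, defined as peaks in the gene body or 10 kb beyond either end that touch no coding promoter. Replicate 1 had 544 of them and replicate 2 had 419, and 40 of 44 members had at least 1 in both, against 68.3% of coding genes. That share was not matched for length, and members had a median length of 77.3 kb against 17.4 kb for coding genes. The median density was 0.790 ± 0.128 per 10 kb for members against 0.396 ± 0.0401 for coding genes, with 32 of 44 members above the coding median. Among genes over 100 kb the gap was smaller, with 0.645 for members and 0.494 for coding genes, and among shorter genes it was wider, with 0.932 for members and 0.380 for coding genes. In replicate 1, 1 peak was counted for both Efna3 and Efna4. By the midpoint of each peak, introns held 78.1% of the member peaks in replicate 1 and 79.5% in replicate 2. By the same rule 5.15% and 5.01% lay in the body of another coding gene. A peak centred in an intron can still reach into an exon.

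**Figure D4:**
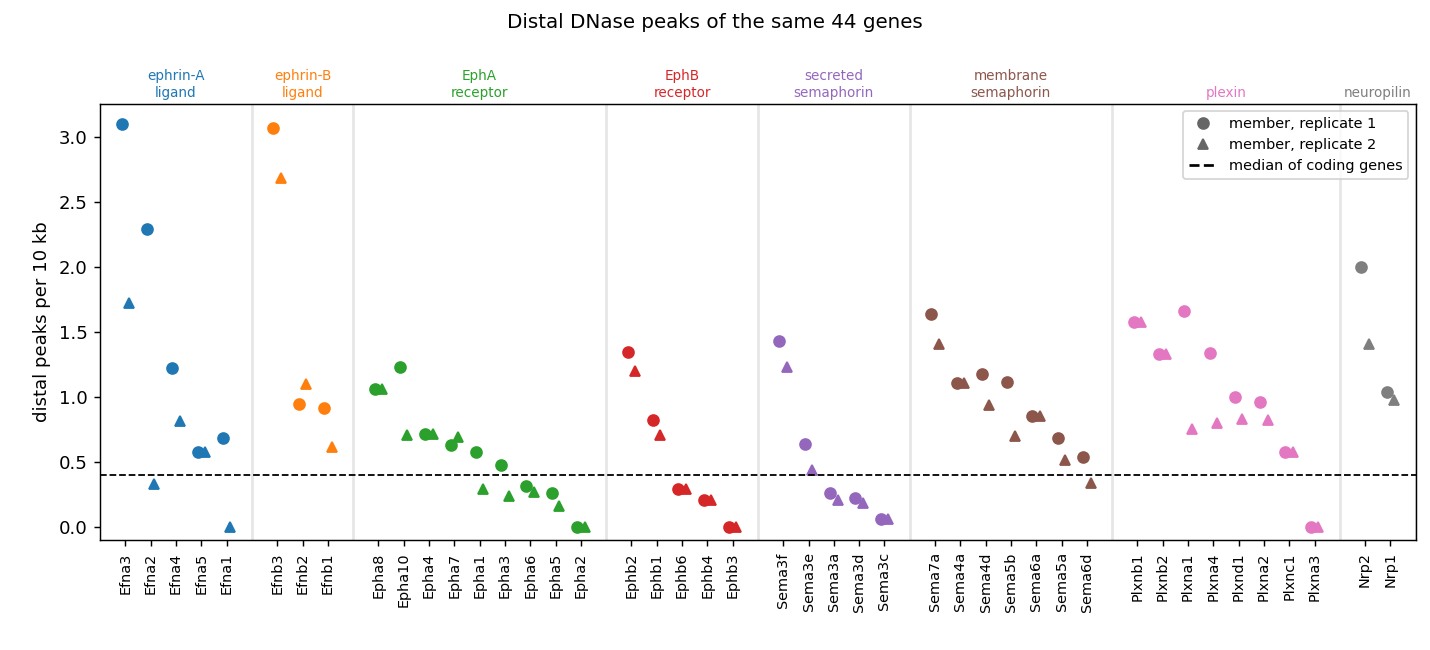
Distal peaks per 10 kb of gene body plus 10 kb flanks for each of the 44 genes in replicate 1 (circles) and replicate 2 (triangles), by class. The dashed line is the median of all coding genes, 0.396, and all 7 membrane semaphorins and both neuropilins have means above it.

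By class median, neuropilins (1.35 per 10 kb) and ephrin-B ligands (1.02) were densest, followed by plexins (0.986), membrane semaphorins (0.977) and ephrin-A ligands (0.895). EphA receptors (0.431), EphB receptors (0.285) and secreted semaphorins (0.231) had the lowest medians. The neuropilin median covers 2 genes. The EphB median over 5 genes is the value of Ephb6, from 1 distal peak in each replicate, in the body of another gene. The EphB genes were not uniformly sparse. By the mean of the replicates Ephb2 had 1.27 and Ephb1 0.762, above the coding median of 0.396, while Ephb4 had 0.206 and Ephb3 0. Efnb3 had 3.06 distal peaks per 10 kb in replicate 1 and 2.68 in replicate 2, and Efna3 had 3.10 and 1.72, but both genes are short, so these rest on 8 and 7 peaks and on 9 and 5. Nrp2, the co-receptor for Sema3f, had 27 and 19 peaks, or 1.99 and 1.40 per 10 kb. Plxnb1 had 1.57 in both replicates, Sema7a 1.64 and 1.40, Sema3f 1.43 and 1.23 and Plxnb2 1.33 in both. Efna2 had 2.29 and 0.328, from 7 peaks in replicate 1, 5 of them in the body of another gene, and 1 in replicate 2. That 1 peak, of height 1.79 and 1.88, is the only one of the 7 found in both replicates.

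At the other end, Epha2, Ephb3 and Plxna3 had 0 distal peaks in both replicates, so the tallest promoter of the 44 belongs to a gene with no distal peak. Sema3c had 1 in each replicate over a gene of 156 kb. Largest in number was Plxna4, with 62 and 37 peaks in 444 kb, followed by Ephb1 with 37 and 32 in 433 kb. Sema6d and Sema5a had 32 each in replicate 1, and 20 and 24 in replicate 2. Across members, promoter height and distal density had a Spearman correlation of 0.0654 (n = 44, all from the same libraries), against 0.262 over all coding genes, as a description.

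Distal peaks of 4 classes are printed next, on the plus strand of mm10 with bases footprinted in both replicates in capitals, because each is the tallest distal peak of its class in replicate 1. Ephb2 is chr4:136741841-136742100, centred in an intron 93872 bp from the nearest start, and Epha4 is chr1:77516281-77516500, centred at -1303 bp from its start. Sema5a is chr15:32246081-32246280, centred in an intron 1368 bp past the start. Nrp1 is chr8:128363321-128363520, centred in an intron 4137 bp past its start.
Ephb2: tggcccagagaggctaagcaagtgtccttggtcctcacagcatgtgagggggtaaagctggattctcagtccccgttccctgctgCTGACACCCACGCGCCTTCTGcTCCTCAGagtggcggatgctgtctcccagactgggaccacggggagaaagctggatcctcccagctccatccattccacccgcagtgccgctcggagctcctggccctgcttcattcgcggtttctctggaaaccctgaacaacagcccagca
Epha4: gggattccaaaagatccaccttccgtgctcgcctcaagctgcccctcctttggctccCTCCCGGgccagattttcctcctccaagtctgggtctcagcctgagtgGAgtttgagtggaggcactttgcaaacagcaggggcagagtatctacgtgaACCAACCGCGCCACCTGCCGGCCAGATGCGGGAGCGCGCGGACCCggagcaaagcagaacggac
Sema5a: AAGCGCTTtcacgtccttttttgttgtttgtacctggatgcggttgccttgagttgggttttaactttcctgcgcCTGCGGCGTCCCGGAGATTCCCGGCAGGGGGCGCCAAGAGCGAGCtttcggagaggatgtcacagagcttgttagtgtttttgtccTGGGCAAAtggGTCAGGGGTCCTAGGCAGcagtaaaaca
Nrp1: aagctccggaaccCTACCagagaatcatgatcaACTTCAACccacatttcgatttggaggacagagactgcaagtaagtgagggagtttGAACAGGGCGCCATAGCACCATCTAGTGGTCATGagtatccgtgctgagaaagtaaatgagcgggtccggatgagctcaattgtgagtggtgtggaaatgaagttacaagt
Their heights in replicates 1 and 2 were 6.05 and 4.06 at Ephb2, 4.76 and 5.40 at Epha4, 3.97 and 3.56 at Sema5a, and 3.08 and 3.31 at Nrp1. All 4 of these peaks, each picked as a tallest one, were taller than the promoters of their own genes in both replicates. Those promoters had 2.03 and 1.67 at Ephb2, 4.10 and 3.92 at Epha4, 0.820 and 0.730 at Sema5a and 2.45 and 1.32 at Nrp1. In replicate 2 another intronic peak of Ephb2 was the tallest, with 4.91, against 3.43 for it in replicate 1. Efna3 had a distal peak of 3.54 and 3.62 and Plxna2 one of 2.97 and 3.35, while Plxnb1 led the plexins in replicate 1 with 3.14 and 2.27. The tallest ephrin-B peak of replicate 1, in Efnb2, had 2.91 and 2.38, and that of the secreted semaphorins, beyond the 3′ end of Sema3f, had 1.72 and 2.33. The Efnb2 peak was lower than the promoter of its gene in both replicates, and those of Efna3 and Plxna2 in replicate 1 alone. Those of Plxnb1 and Sema3f were taller than the promoters in both. The Epha4 and Sema5a peaks lie outside windows of 1000 bp but within 2000 bp of a start.

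CTCF, a factor known for bounding chromatin loops, had its motif in recurrent distal footprints. A match lay in 17 of 1085 distal footprints in replicate 1 (1.57%) and 17 of 916 in replicate 2 (1.86%). In each replicate 16 of the 17 were shared with the other. Promoter footprints were fewer, and 0 of 334 and 0 of 364 matched. More distal footprints matched the NEUROD letters CAGATG (68 and 51) and the NFI letters TTGGCA (32 and 25). Shares over all distal footprints were not counted for these motifs. At Epha6, Efna5 and Sema3d the tallest distal peak of the gene in replicate 1 held a footprint with a CTCF match. The search took exact consensus letters, so tallest peaks of other genes may hold variants of the motif that were not counted. They are chr16:59683561-59683740, chr17:62784041-62784220 and chr5:12562321-12562480, on the plus strand of mm10.
Epha6: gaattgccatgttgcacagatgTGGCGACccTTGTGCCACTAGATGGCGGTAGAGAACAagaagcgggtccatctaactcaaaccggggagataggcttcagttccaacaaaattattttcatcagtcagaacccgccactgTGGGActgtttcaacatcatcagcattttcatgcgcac
Efna5: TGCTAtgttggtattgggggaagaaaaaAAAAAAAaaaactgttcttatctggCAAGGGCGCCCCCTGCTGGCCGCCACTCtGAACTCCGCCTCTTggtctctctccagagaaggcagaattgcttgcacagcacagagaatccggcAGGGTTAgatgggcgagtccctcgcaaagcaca
Sema3d: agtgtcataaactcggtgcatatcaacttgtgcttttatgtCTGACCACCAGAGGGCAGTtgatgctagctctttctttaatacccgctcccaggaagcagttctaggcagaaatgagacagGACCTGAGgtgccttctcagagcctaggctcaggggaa
Heights were 2.62 and 2.08 at Epha6, 1.92 and 1.94 at Efna5 and 0.998 and 1.07 at Sema3d, and in each the longest run of capitals carries the match. The peaks of Epha6 and Efna5 were taller than the promoters of their genes in both replicates, and that of Sema3d was lower in both. Over all member distal peaks the CTCF match was no more frequent than elsewhere, at 3.50% and 4.06% against 4.64% and 5.44% of all distal peaks. The NEUROD E-box CAGATG stood in 31.1% and 30.5% of member distal peaks, against 30.6% and 29.9%.

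Peaks of these genes recurred between the replicates about as often as peaks in general. Of all their peaks, 68.9% in replicate 1 and 86.8% in replicate 2 overlapped one of the other replicate, against 72.3% and 84.1% of all peaks. Promoter heights were lower in replicate 2 for 31 of 41 members, against 89.2% of coding genes open in both, with a median log2 ratio of -0.20, against -0.33 for coding genes. Part of that gap goes with height: among coding genes no taller than the member median the ratio was -0.22, against -0.15 for the 21 members there, and above it -0.36, against -0.32 for 20 members.

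The members that moved most between replicates were Nrp1, at -0.90 on the log2 scale of replicate 2 over replicate 1, Epha5 at -0.77, Epha10 at -0.69 and Efna3 at -0.62. The Nrp1 value compares different peaks, since its strongest peak in replicate 1 touches the edge of the window and the matching peak of 1.96 in replicate 2 falls just outside. With those paired the ratio was -0.33. Outside the central 95% of coding genes, which ran from -0.76 to 0.25, lay Nrp1 and Epha5 below and Sema3c (0.43), Epha6 (0.34), Sema3d (0.29) and Epha1 (0.26) above. The ratio of Epha6 also compares different peaks, and with its strongest peak of replicate 1 paired it was -0.13, inside that range. Sema3c rests on 65 and 89 steps of height and Epha1 on 101 and 123, where the median of all peaks was 98 and 99 steps. Why these low promoters differ between replicates was not tested.

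Other genes of the guidance pathways, from lists of names, were open in 50 of 55 cases in both replicates, and the effectors were the tallest of them. Of 9 further semaphorin and plexin genes 8 were open in both replicates, led by Sema4b with 6.05 and 4.83 and Sema4c with 4.13 and 3.09, and Sema3b had no promoter peak. The median height of that list was 1.75 ± 0.262. Of 20 netrin, Slit and RGM ligands and receptors 17 were open, led by Rgmb, a BMP co-receptor that binds neogenin, with 10.2 and 7.27, and by Robo3 with 5.31 and 5.39. Robo4, an endothelial receptor, had none, while Ntn1 and Ntng1 had a peak in 1 replicate alone, and the median was 1.87 ± 0.357. Of 26 effectors of Eph and plexin signalling, mostly cytoplasmic but with the membrane proteins L1cam and Adam10, 25 were open. Their median height was 2.84 ± 0.346. They were led by the adaptor gene Nck1 with 11.7 and 8.50 and by the collapsin response mediator gene Dpysl2 with 11.1 and 8.41. Mical3 had no promoter peak. Above the coding median of height stood 6 of the 44 members, against 10 of the 26 effectors, 3 of the 20 and 2 of the 9.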

How the data were processed

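DNase-seq of mouse hippocampus was analysed in 2 replicates of 1 group. Per the labels the assembly was mm10. Aligner, peak caller and footprint caller: not given in the sources used here. The authors deposited, per replicate, a longer and a shorter peak list with a signal for each peak, whose scale is not stated. The authors also deposited false discovery rates (a p-value type measure) of local cutting, listed up to 0.05, and footprints that all carry the constant 0.01, taken here as their threshold. All were called per sample. The longer peak list was used. Total cut depth was not analysed here, so the number of peaks and the whole steps of the signal stand for precision, and they cover counting error only.

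Gene models were GENCODE M21 (basic set), with sequence from GRCm38 read with samtools 1.23.1 and pysam 0.24.0. Overlaps of 1 bp counted. Peak lists hold some overlapping peaks, whose bases were counted once. Python 3.11.15 with numpy 2.4.6 and pandas 2.3.3 gave all values, and matplotlib 3.10.9 the figures. The CpG ratio is the highest over a gene's start sites, 500 bp to each side. Distal motifs were counted in 200 bp at peak centres. For footprints, matches that overlapped one only in part were included. The counting functions were tested on simulated data with known answers.

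The members and all gene lists were chosen with earlier results of these data known. Values are given for up to 3 members of each class with the highest promoter, every member not open in both replicates, the 8 with the most distal peaks per 10 kb and those with the fewest, the tallest distal peak of each class, the 4 with the largest replicate difference, and the 2 highest and up to 2 closed genes of each other list. Further members were named with their values in view. With 2 samples of 1 group no test was possible and no p-value of a comparison is given. Allelic mapping in the hybrid was not examined. Alternatives changed the peak list, the window, the flank, the overlap and the replicates used.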

Additional observations from a re-analysis of the deposited data

How the results depend on the processing

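The number of members open in both replicates ran from 37 (shorter peak list, and peaks at or above the median height) to 42, and was 41 to 43 with 1 replicate left out. The median promoter height of members stayed below that of coding genes in every alternative run. It was 1.47 against 3.26 with windows of 500 bp, 2.97 against 4.22 with summed heights, 2.01 against 3.53 with the shorter list and 2.01 against 3.58 with the taller peaks, and 1.67 to 1.71 with 1 replicate left out.

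Distal density was 1.10 against 0.773 with promoter peaks counted too, 0.416 against 0.206 with the shorter list and 0.411 against 0.151 with the taller peaks, and 0.700 to 0.881 with 1 replicate left out. The gap to coding genes depended on the flank, at 0.696 against 0.0853 for gene bodies alone and 0.691 against 0.459 with 50 kb flanks. The share of member peaks found in both replicates was 62.1% with reciprocal overlap required and 68.9% to 86.8% by direction. Footprints per promoter were 8.75 with windows of 2000 bp and 6 to 8 with 1 replicate left out. Covered width was 504 bp with windows of 500 bp, 902.5 bp with 2000 bp, 643.5 bp at gene 5′ ends alone, 508.5 bp with the shorter list and 630 bp with the taller peaks, and 679 to 680 bp with 1 replicate left out, above coding genes each time. The median log2 ratio ran from -0.28 to -0.19. The alternatives for covered width, the pairing of promoter peaks and the removal of chromosome X were chosen after seeing the data. No paired analysis was possible because there is 1 group. The causes were not tested.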
